A study of Mus musculus with 12 samples.

Results

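Histone genes of the replication-dependent clusters were measured in blood progenitors after deletion of Lamtor2, a subunit of the Ragulator complex that anchors mTORC1 and ERK signalling on late endosomes and lysosomes. The genes were those whose single-symbol probe set belonged to a gene with an older symbol starting with Hist1h, Hist2h, Hist3h or Hist4h. The annotation uses the current symbols, so membership was read from the older symbols listed for each gene identifier. This gave 31 genes of 19937, each with 1 probe set. They comprised 5 linker H1, 5 H2A, 11 H2B, 3 H3 and 7 H4 genes, of which 23 lie in the Hist1 cluster, 4 in Hist2, 3 in Hist3 and 1 in Hist4. Of the 70 genes with such a symbol in the gene table, 38 are annotated only on probe sets shared by several genes, and 1 (H2ac14) on none. The 23 shared probe sets are described after the members.

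LSK cells (Lin- Sca1+ c kit+, the stem cells and multipotent progenitors) and GMP cells (the granulocyte and macrophage progenitors, gated as CD34+ FcγR+ among Lin- Sca1- c-kit+ cells) were sorted from bone marrow. Each cell type had 3 KO and 3 WT arrays, which gave 4 groups. KO mice were C57BL/6J with Mx-Cre and floxed Lamtor2 alleles (Lamtor2f/f), and WT mice were C57BL/6J with Mx-Cre and wild-type Lamtor2 (one label writes the transgene of both genotypes as Mx1-Cre wt/wt). Both genotypes received pIpC by intraperitoneal injection, and cells were taken on day 14. The Mx promoter responds to interferon in many cell types, so deletion need not be limited to blood progenitors, and the WT mice carried both the Cre transgene and the pIpC exposure. Each genotype had 3 mice, and which LSK and GMP arrays came from one mouse is not stated.

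Values are RMA log2 intensities, and a difference of 1 is a doubling of signal. Lamtor2 read 5.11, 5.40 and 5.77 in LSK KO, against 10.39, 10.48 and 10.31 in LSK WT, and 5.53, 5.12 and 4.95 in GMP KO, against 10.80, 10.82 and 10.61 in GMP WT. The KO and WT arrays did not overlap for Lamtor2 in either cell type (exact two-sided permutation p = 0.1 in each, the smallest that 3 against 3 can give), and Lamtor2 fell by 4.97 in LSK and by 5.54 in GMP. The sorting receptor gene Kit averaged 11.34 in LSK KO, 11.34 in LSK WT, 10.79 in GMP KO and 10.35 in GMP WT. GMP KO replicate 1 had a mean correlation of 0.979 with its group, where GMP KO replicates 2 and 3 had 0.985 and 0.986, each GMP WT array 0.996 and the LSK arrays 0.993 to 0.995. The tests of the histone genes and the counts of the histone-related and cell cycle lists were repeated without it. Not all of these repeats are given below, and the counts of cell type markers were not repeated.

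Histone proteins package DNA: H2A, H2B, H3 and H4 form the nucleosome core, and H1 binds the linker between cores. Replication-dependent histone genes are transcribed mainly in S phase, when the factor Npat drives them, and their mRNAs end in a stem-loop bound by Slbp in place of a poly(A) tail. Some members also give polyadenylated transcripts in cells that no longer divide, among them H1f2 (Hist1h1c), H2bc4 (Hist1h2bc) and H2bc21 (Hist2h2be). H1f6 (H1t), H2ac1 (TH2A) and H2bc1 (TH2B) encode histones of the male germ line.

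The members that passed a test in any comparison and have an entry in RefSeq's promoter table (GRCm38.p6) are shown here by the 250 bases before their start, so that their upstream elements can be read beside their changes. Capitals mark 4 motifs: TATAAA on the gene's strand, and CCAAT, the octamer ATTTGCAT and the H1 box AAACACA on either strand.
H1f2 (Hist1h1c), chr13:23738557-23738806, plus strand: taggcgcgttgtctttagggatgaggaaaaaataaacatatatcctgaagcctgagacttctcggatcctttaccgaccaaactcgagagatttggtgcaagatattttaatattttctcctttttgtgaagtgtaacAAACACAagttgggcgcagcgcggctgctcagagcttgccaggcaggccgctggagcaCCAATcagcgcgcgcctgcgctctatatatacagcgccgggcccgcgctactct
H2ac15 (Hist1h2ak), chr13:21753913-21754162, minus strand: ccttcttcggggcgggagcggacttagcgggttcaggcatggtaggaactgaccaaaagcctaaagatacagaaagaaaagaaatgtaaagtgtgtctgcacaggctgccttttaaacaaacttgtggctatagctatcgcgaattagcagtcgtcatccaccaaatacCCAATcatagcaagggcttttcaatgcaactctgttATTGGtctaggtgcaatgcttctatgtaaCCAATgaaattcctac
H2ac4 (Hist1h2ab), chr13:23750838-23751087, plus strand: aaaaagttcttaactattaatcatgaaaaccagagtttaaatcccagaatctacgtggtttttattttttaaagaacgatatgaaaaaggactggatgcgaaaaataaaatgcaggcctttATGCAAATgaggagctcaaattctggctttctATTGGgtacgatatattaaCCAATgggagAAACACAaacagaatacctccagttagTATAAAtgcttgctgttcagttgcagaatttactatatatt
H2bu2 (Hist3h2ba), chr11:58948661-58948910, plus strand: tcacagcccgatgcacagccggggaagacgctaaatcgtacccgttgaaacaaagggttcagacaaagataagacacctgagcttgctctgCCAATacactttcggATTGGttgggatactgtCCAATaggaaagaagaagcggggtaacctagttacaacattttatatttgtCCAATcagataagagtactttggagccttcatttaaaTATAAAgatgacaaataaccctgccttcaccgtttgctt
H2bc14 (Hist1h2bm), chr13:21721794-21722043, plus strand: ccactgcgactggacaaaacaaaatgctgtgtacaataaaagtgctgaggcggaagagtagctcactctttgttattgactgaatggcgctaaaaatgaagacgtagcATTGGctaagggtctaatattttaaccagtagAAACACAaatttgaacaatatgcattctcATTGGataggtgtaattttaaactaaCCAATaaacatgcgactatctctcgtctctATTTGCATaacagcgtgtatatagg
H3c4 (Hist1h3d), chr13:23575513-23575762, plus strand: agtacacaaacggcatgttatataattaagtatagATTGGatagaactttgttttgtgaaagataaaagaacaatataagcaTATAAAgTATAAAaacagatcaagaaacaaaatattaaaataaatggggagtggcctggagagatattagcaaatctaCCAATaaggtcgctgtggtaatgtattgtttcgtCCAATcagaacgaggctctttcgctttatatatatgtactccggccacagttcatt

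Promoters were found for 26 of the 31 members, and H2bc4, H2bc21, H2bu1-ps, H3c7 and H4c14 had no entry. CCAAT lay within these 250 bases in 21 of the 26, compared with 33.8% of 32851 promoters in the table. The octamer, an element known from H2B promoters, was present in 9 of 26, in 4 H2A and 5 H2B promoters, compared with 1.6% of all promoters. Neighbouring H2A and H2B genes that face away from each other can share such an interval. TATAAA was found in 13 of 26 (7.59% of all) and AAACACA in 8 of 26 (6.25% of all), 4 of these in H1 promoters. H2ac4 carries the octamer 129 bases, a CCAAT 78 bases, AAACACA 68 bases and TATAAA 41 bases before its start. H1f2 carries AAACACA at 112 bases and CCAAT at 54 bases and has no match to TATAAA. A match describes these letters only.

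In LSK cells nearly all histone genes read somewhat lower after Lamtor2 loss, and a single gene passed the test. The difference lay below 0 in 29 of 31 members, as it did for 53.5% of all genes, and the median was -0.36, compared with -0.01 over all genes. H2bu2 fell (limma adjusted p = 0.00133), so 1 of 31 was called, 3.23%, where 4.44% of all genes were called in either direction, 1.96% lower and 2.49% higher. No member rose (7 of 31 had an unadjusted p under 0.05, where 15.9% of all genes did). The KO arrays lay wholly below the WT arrays for 3 members (H2bu2, H2bc21 and H4c8), 9.68% of the members, where this held for 13.2% of all genes, and wholly above for 0, where it held for 12.4%. Without LSK KO replicate 2 the median was -0.18.

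H2bu2 (Hist3h2ba), an H2B gene of the Hist3 cluster, read 5.66, 5.52 and 5.42 in LSK KO, against 6.27, 6.14 and 6.13 in LSK WT. The 3 KO arrays were all lower, and H2bu2 fell by 0.65 (SE 0.09, log2). Leaving out any array in turn kept the adjusted p between 7.24e-04 and 0.00986. Its signal was low, with means of 5.53 in LSK KO, 5.53 in GMP KO and 5.67 in GMP WT. These means lay below the array medians over all probe sets (5.96 to 6.18), and the deleted Lamtor2 averaged 5.43 in LSK KO.

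H4c14 (Hist2h4), an H4 gene of the Hist2 cluster, had the next smallest p. Its values were 11.64, 10.79 and 11.26 in LSK KO, against 12.18, 12.07 and 11.59 in LSK WT. The highest KO array stood just above the lowest WT array, and the difference was -0.71 (SE 0.21, adjusted p = 0.0738). All 7 H4 genes were below 0 in LSK, with a median of -0.60 and a range from -0.83 for H4c8 to -0.14 for H4c4, and 0 of the 7 passed. H4c3 differed by -0.70 and H4c6 by -0.60.

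No H1 gene passed in LSK, and 4 of 5 lay below 0. H1f1 (H1.1) averaged 10.45 ± 0.66 in KO and 11.12 ± 0.23 in WT (SD, n = 3 each), and H1f5 (H1.5) averaged 10.69 ± 0.60 in KO and 11.21 ± 0.22 in WT (SD, n = 3 each). Neither passed (adjusted p = 0.296 and 0.381 by limma). H1f2 (H1.2) averaged 9.51 ± 0.47 in KO and 9.46 ± 0.16 in WT, a difference of 0.05. H1f3 (H1.3) differed by -0.23. Among the H2A genes the differences ran from -0.65 (H2ac4) to -0.22 (H2ac8), and among the H2B genes from -0.81 (H2bc3) to 0.32 (H2bc8). The 3 H3 genes lay between -0.41 (H3c4) and -0.28 (H3c7), with H3c15 at -0.38.

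**Figure D1:**
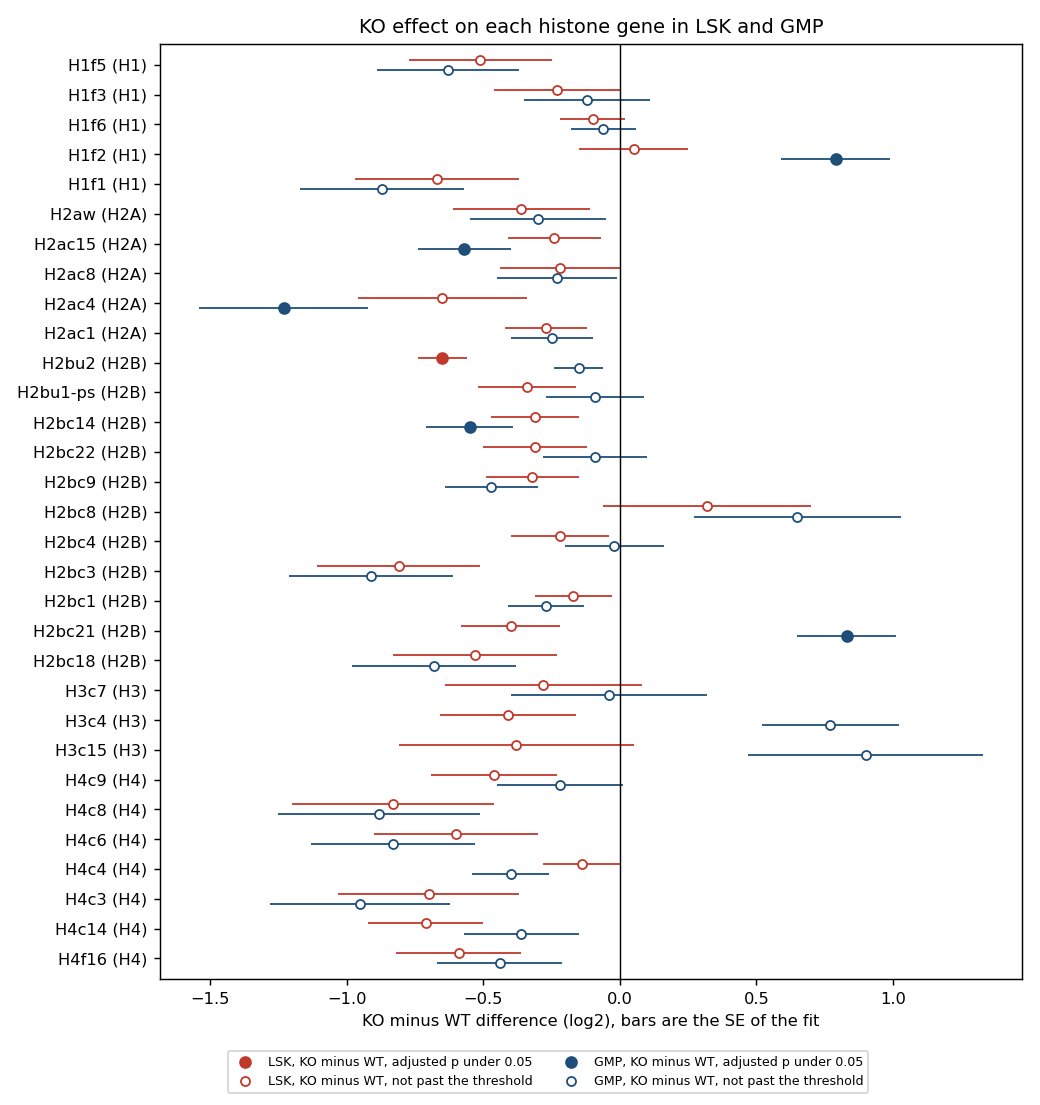
Difference between KO and WT (log2, x axis) for each of the 31 histone genes (y axis, class in brackets) in LSK and GMP, with the SE of the fit. Filled points passed an adjusted p of 0.05. Most points lie left of 0 in both cell types, and H1f2, H2bc21, H3c4 and H3c15 lie left of or near 0 in LSK and right of 0 in GMP.

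In GMP cells the members split: 3 fell, 2 rose and 26 did not pass. H2ac4, H2ac15 and H2bc14 fell, and H1f2 and H2bc21 rose. That is 5 of 31 members, 16.1%, the same percentage as the 16.1% called over all genes (5.78% higher and 10.3% lower). An unadjusted p under 0.05 was found for 15 of the 31, and for 28.1% of all genes. The median was -0.27, compared with 0.01 over all genes, and 26 of 31 members lay below 0, compared with 47.1% of all genes. The KO arrays lay wholly below the WT arrays for 11 members (35.5%), where this held for 17.6% of all genes, and wholly above for 3 (H1f2, H2bc21 and H3c4), where it held for 12% of all genes. Without GMP KO replicate 1, the array with the lowest correlation with its group, 3 members fell and 2 rose. The 3 that fell were not the same set, since H2ac15 lost its call (limma adjusted p = 0.0738). The split depended on scaling, with 2 higher and 1 lower after repeated quantile normalisation and 2 higher and 6 lower with arrays centred on their median. The count that fell was 13 without GMP KO replicate 3, 1 without GMP KO replicate 2, 0 without GMP WT replicate 1, 0 without GMP WT replicate 2, 1 without GMP WT replicate 3, 5 without LSK KO replicate 1 and 8 without LSK KO replicate 2. The count that rose was 4 without GMP KO replicate 2 and 1 without GMP KO replicate 3, GMP WT replicate 1 or GMP WT replicate 3, and the median was -0.46 without GMP KO replicate 3.

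H2ac4 (Hist1h2ab), which encodes core H2A, had the largest decrease. It read 8.83, 8.74 and 9.89 in GMP KO, against 10.74, 10.33 and 10.07 in GMP WT. All 3 KO arrays were lower, 2 of them by more than 1 below the lowest WT array, and H2ac4 fell by 1.23 (SE 0.31, adjusted p = 0.0153). The adjusted p was 0.0706 without GMP WT replicate 1 and 0.05 without GMP WT replicate 2.

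H2bc14 (Hist1h2bm), a core H2B gene, read 11.67, 11.36 and 11.94 in GMP KO, against 12.25, 12.11 and 12.27 in GMP WT. H2ac15 (Hist1h2ak), a core H2A gene, read 10.34, 10.18 and 10.71 in GMP KO, against 11.12, 10.92 and 10.89 in GMP WT. Neither gene's KO arrays overlapped the WT arrays. H2bc14 fell by 0.55 (SE 0.16, adjusted p = 0.0303) and H2ac15 by 0.57 (SE 0.17, adjusted p = 0.0347). The H2bc14 call ended without GMP KO replicate 2 or GMP WT replicate 1, 2 or 3, with adjusted p between 0.0635 and 0.0951. The H2ac15 call ended without GMP KO replicate 1 or 2 or GMP WT replicate 1, 2 or 3, with adjusted p between 0.0648 and 0.127. Both calls also ended after repeated quantile normalisation, with array weights and with only the 6 GMP arrays fitted, with adjusted p = 0.0591, 0.054 and 0.0578 for H2bc14 and 0.114, 0.059 and 0.0519 for H2ac15.

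H1f2 (Hist1h1c), the linker histone H1.2, read 9.63, 9.66 and 10.15 in GMP KO, against 8.92, 9.19 and 8.96 in GMP WT. All 3 KO arrays were higher, and H1f2 rose by 0.79 (SE 0.20, adjusted p = 0.0176). The adjusted p was 0.0614 without GMP KO replicate 3, 0.0659 without GMP WT replicate 1 and 0.0608 without GMP WT replicate 3. H1f1 averaged 9.95 ± 0.58 in KO and 10.82 ± 0.18 in WT, and H1f5 averaged 10.58 ± 0.41 in KO and 11.21 ± 0.21 in WT (SD, n = 3 each). H1f1 differed by -0.87 (adjusted p = 0.0708) with KO arrays all below WT, and H1f5 by -0.63 (adjusted p = 0.131).

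H2bc21 (Hist2h2be), which encodes the H2B variant H2BE known from mouse olfactory neurons, read 8.66, 8.14 and 7.76 in GMP KO, against 7.16, 7.59 and 7.31 in GMP WT. All 3 KO arrays were higher, and H2bc21 rose by 0.83 (SE 0.18, adjusted p = 0.00635). Its value was 0.60 without GMP KO replicate 1, and the call held with any array left out, while a fit of the 6 GMP arrays alone gave adjusted p = 0.0504. In LSK the same gene read 7.98, 8.05 and 8.13 in KO, against 8.47, 8.42 and 8.46 in WT, with the KO arrays all lower (-0.40, SE 0.18, adjusted p = 0.291). H2bc4 (Hist1h2bc), also known to give polyadenylated transcripts, averaged 8.91 ± 0.29 in GMP KO and 8.93 ± 0.23 in GMP WT (SD, n = 3 each), a difference of -0.02 (SE 0.18).

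**Figure D2:**
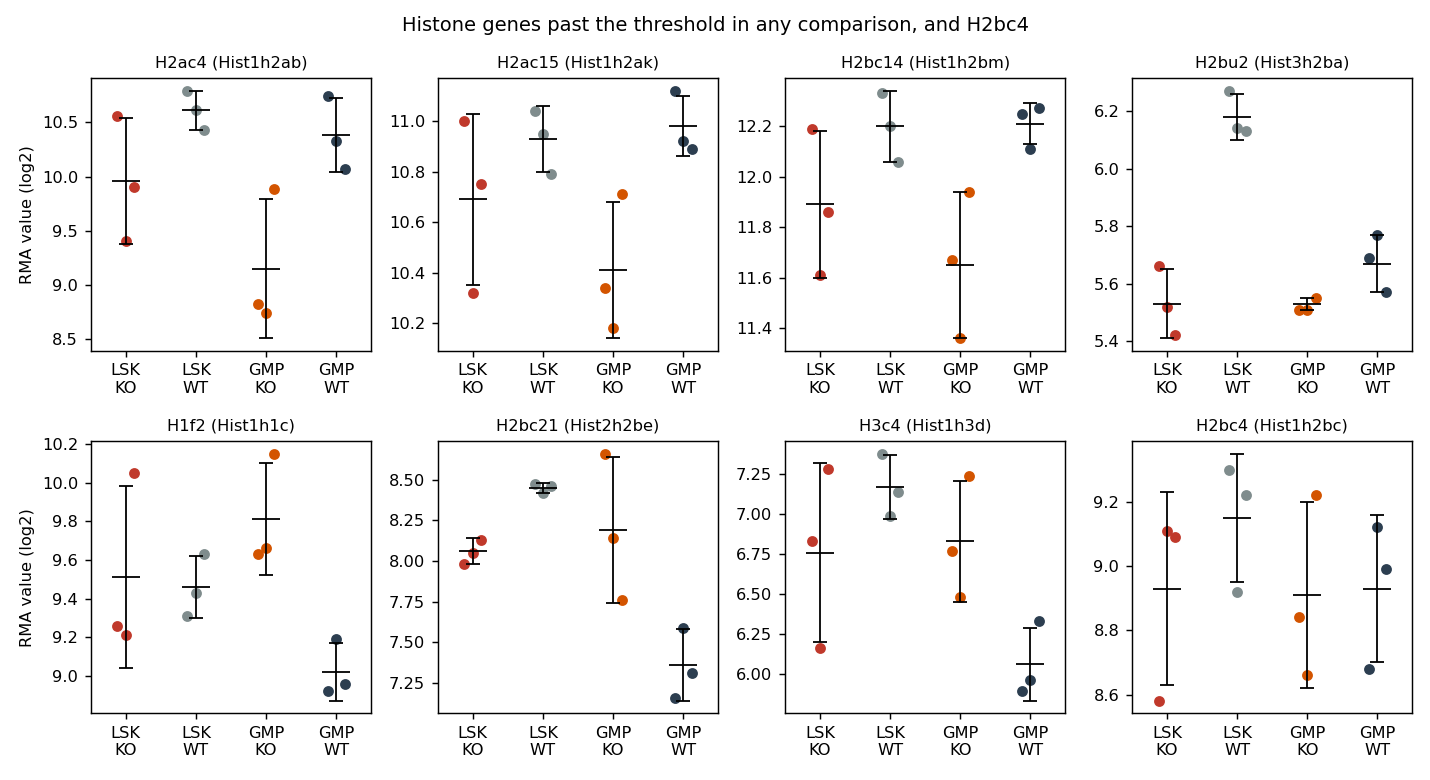
RMA values (log2, y axis, own scale in each panel and not starting at 0) of the 7 histone genes past the threshold in any comparison and of H2bc4, in KO and WT arrays of LSK, then of GMP. Points are arrays, and bars are mean and SD of 3 arrays. H2ac4, H2ac15 and H2bc14 lie lower in GMP KO than in GMP WT, and H1f2, H2bc21 and H3c4 lie higher.

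All 7 H4 genes were below 0 in GMP, as they were in LSK, with a median of -0.44 and a range from -0.95 to -0.22, and 0 passed. H4c3 (Hist1h4c) read 10.22, 9.0 and 10.34 in GMP KO, against 10.85, 10.82 and 10.74 in GMP WT. Its KO arrays were all lower, replicate 2 by the widest margin, and the difference was -0.95 (SE 0.33, adjusted p = 0.0676). H4c6 (-0.83, adjusted p = 0.0807), H4c4 (-0.40, adjusted p = 0.0669) and H4c14 (-0.36, adjusted p = 0.295) also had KO arrays wholly below WT, while H4c8 (-0.88, adjusted p = 0.142) overlapped.

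Of the 3 H3 genes, 2 lay above 0 in GMP. H3c4 (Hist1h3d) read 6.77, 6.48 and 7.24 in GMP KO, against 5.89, 5.96 and 6.33 in GMP WT. Its KO arrays were all higher, and the difference of 0.77 (SE 0.25) just missed the threshold (adjusted p = 0.0509). H3c15 (Hist2h3c2) read 6.90, 4.66 and 5.78 in KO, against 5.11, 4.38 and 5.16 in WT, so its groups overlapped (0.90, SE 0.43, adjusted p = 0.195). H3c7 differed by -0.04.

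Of the remaining H2B genes, H2bc3 (-0.91, adjusted p = 0.0591) and H2bc9 (-0.47, adjusted p = 0.0898) had GMP KO arrays wholly below WT. The same held for H2bu2 (-0.15, adjusted p = 0.343), and H2bc18 differed by -0.68 (adjusted p = 0.153). H2bc8 (Hist1h2bg) lay above 0 in both cell types, at 0.65 (SE 0.38) in GMP and 0.32 (SE 0.38) in LSK, with adjusted p = 0.298 and 0.799. The germ line members did not pass, with H1f6 at -0.06, H2ac1 at -0.25 and H2bc1 at -0.27 in GMP, and -0.10, -0.27 and -0.17 in LSK. H2aw (Hist3h2a) differed by -0.30 in GMP and -0.36 in LSK. The 5 members not named by the rule (H2ac8, H2bu1-ps, H2bc22, H4c9 and H4f16) ranged from -0.59 to -0.22 in LSK and from -0.44 to -0.09 in GMP.

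Both cell types compared, 26 of 31 members lay below 0 in each, where 25.7% of all genes did. The difference between the KO effects (LSK minus GMP) was tested as an interaction, and 2 of 31 members passed, both below 0, where 7.98% of all genes passed (2.64% below 0 and 5.34% above). H2bc21 differed by -1.23 (SE 0.25, adjusted p = 0.011), being below WT in LSK and above WT in GMP. H2bu2 differed by -0.50 (SE 0.13, adjusted p = 0.0351), at -0.65 in LSK and -0.15 in GMP (adjusted p = 0.343 in GMP). In GMP too the KO arrays of H2bu2 (5.51, 5.51 and 5.55) lay wholly below WT (5.69, 5.77 and 5.57). Its signal was low in both GMP groups, with means of 5.53 in GMP KO and 5.67 in GMP WT. The H2bu2 difference lost its call without 9 of the 12 arrays in turn, namely GMP KO replicate 3, any array of GMP WT, LSK KO replicate 2 or 3 and any array of LSK WT, with adjusted p between 0.0526 and 0.0934. It also lost its call after repeated quantile normalisation (-0.36, adjusted p = 0.184) and with arrays centred on their median (-0.40, adjusted p = 0.0975). H3c4 (-1.18, adjusted p = 0.0567) and H3c15 (-1.27, adjusted p = 0.241) did not pass.

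Most members had their lowest or highest value in the same array of a group. In LSK KO, replicate 2 was the lowest of the 3 arrays for 28 of 31 members, while it was lowest for 30% of all genes. In GMP KO, replicate 2 was lowest for 22 members, while it was lowest for 38% of all genes, and replicate 3 was highest for 26 members. In the WT groups, where SDs were smaller, LSK WT replicate 1 was the highest of its group for 29 members and GMP WT replicate 1 for 22. The share of all genes with their highest value in a given array was not computed. The SD of a member within a group had a median of 0.43 in LSK KO and 0.20 in LSK WT, and of 0.38 in GMP KO and 0.15 in GMP WT. The same median over all genes was 0.11 in LSK KO, 0.11 in LSK WT, 0.18 in GMP KO and 0.10 in GMP WT.

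**Figure D3:**
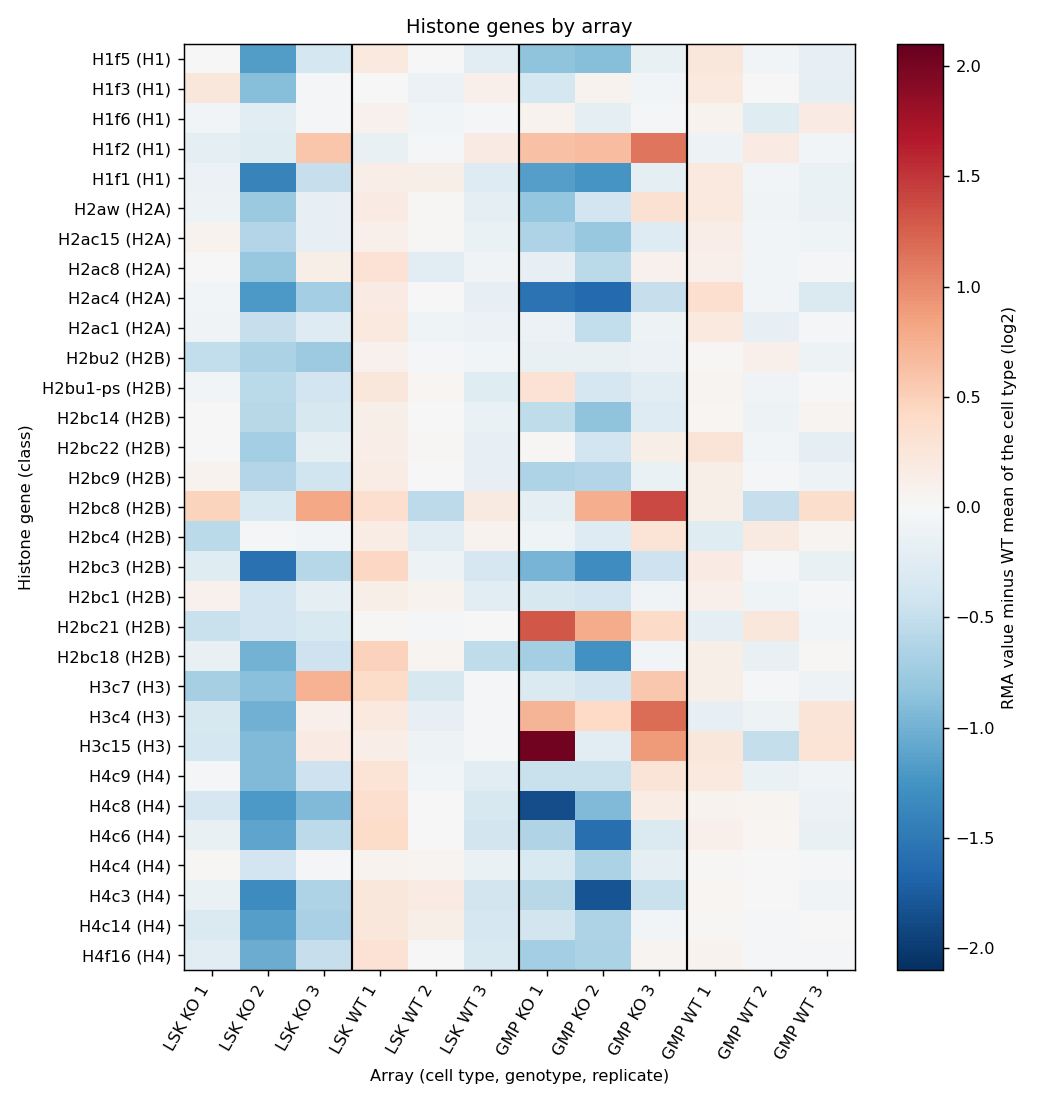
RMA value minus the WT mean of the same cell type (log2, colour) for each histone gene (rows, by class) in each array (columns). LSK KO replicate 2 and GMP KO replicates 1 and 2 are the darkest blue columns, and H1f2, H2bc21 and H3c4 form red rows in GMP KO.

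Relative to WT, the median member stood at -0.11, -0.79 and -0.32 in LSK KO replicates 1, 2 and 3, and at -0.37, -0.53 and -0.06 in GMP KO replicates 1, 2 and 3. Of the WT arrays, LSK WT lay at 0.18, -0.01 and -0.17 and GMP WT at 0.11, -0.05 and -0.06. By this median, GMP KO replicate 3 stood at the lower end of the WT arrays, and LSK KO replicate 1 lay within their range. The place of GMP KO replicate 3 depended on the summary. Its mean over the members was 8.68, against 8.68, 8.52 and 8.54 in GMP WT.

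The 23 shared probe sets, each annotated to 2 to 19 symbols, were tested in a fit over all 34760 probe sets. They stand for the H3, H4, H2A and H2B genes that cannot be read singly, and 19 of the 31 members are listed on them too, so signal from near-identical copies may be split between probe sets. In LSK all 23 lay below 0, with a median of -0.41, where 53.7% of all probe sets did. None passed in limma, where 1.8% of all probe sets did and 0.731% fell. In GMP 22 of 23 lay below 0, with a median of -0.49, where 43.2% of all probe sets did, and 2 fell (8.7%), where 9.94% of all probe sets were called and 5.54% fell. That count was 8 without GMP KO replicate 3 and 1 without any one GMP WT array. One of these, an H2B set with 15 symbols, averaged 10.71 ± 0.41 in GMP KO and 11.99 ± 0.08 in GMP WT (SD, n = 3 each) and fell by 1.28 (SE 0.26, adjusted p = 0.0113). The other, annotated to 19 symbols, mainly H2A genes and also H2ax, averaged 8.87 ± 0.52 in GMP KO and 10.10 ± 0.06 in GMP WT and fell by 1.23 (SE 0.27, adjusted p = 0.0161). The 9 shared H3 sets lay between -0.82 and -0.25 in GMP, and none passed. The single-symbol H3c4, H3c15 and H3c7 lay at 0.77, 0.90 and -0.04, and none of these passed either. Their signal in GMP WT averaged 6.06, 4.88 and 3.82.

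Genes that transcribe, process and handle histones were set beside the members. Of 26 genes of histone mRNA transcription and 3′ end processing, 7 fell and 0 rose in GMP (median -0.20), and 1 fell in LSK, where 10.3% of all genes fell in GMP and 1.96% in LSK. The effects differed between the cell types for 3 of the 26 by the interaction test, as they did for 7.98% of all genes. The GMP count was 4 without GMP WT replicate 1 or 2. Slbp, the stem-loop binding protein, fell by 0.47 (SE 0.09, adjusted p = 0.00406) in GMP and differed by -0.16 in LSK. Casp8ap2 (FLASH), which acts in histone pre-mRNA processing, fell by 0.61 (SE 0.10, adjusted p = 0.00116), and the cleavage factor subunit Cpsf2 fell by 0.71 (SE 0.11). Npat itself differed by -0.42 in GMP (adjusted p = 0.0773) and by 0.27 in LSK. The cap-binding subunit Ncbp2 fell in both, by 0.50 in GMP and by 0.44 in LSK (adjusted p = 0.00367 and 0.0211), and its LSK call ended without LSK KO replicate 1 or 3 or any array of LSK WT.

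Of 24 histone chaperones and chromatin assembly genes, 8 fell and 0 rose in GMP (median -0.31), and 0 fell and 1 rose in LSK (median 0.02). Over all genes, 10.3% fell and 5.78% rose in GMP, and 1.96% fell and 2.49% rose in LSK. Nasp, a chaperone of H1, H3 and H4, fell by 0.88 (SE 0.15, adjusted p = 0.00123) in GMP. Asf1a, which hands H3 and H4 to the assembly factors, fell by 0.51 (SE 0.09), and Dnajc9, a chaperone of H3 and H4, fell by 0.59 (SE 0.09). Anp32e, which removes H2A.Z, fell by 0.58 in GMP and rose by 0.35 in LSK (adjusted p = 0.0479), a call that ended under both rescalings and without 8 of the 12 arrays in turn.

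Histone variants made outside the clusters had 6 of 12 lower and 1 higher in GMP, and 2 lower and 1 higher in LSK. Of all genes, 10.3% were lower and 5.78% higher in GMP, and 1.96% lower and 2.49% higher in LSK. H1f10 (H1x) averaged 7.40 in LSK KO and 8.51 in LSK WT and fell by 1.10 (SE 0.13, adjusted p = 3.39e-04), and in GMP it fell by 0.53 (adjusted p = 0.0131). H2ax, phosphorylated at DNA breaks, fell by 0.53 in LSK and by 0.73 in GMP (adjusted p = 0.0368 and 0.0023). Macroh2a2, a variant with a macrodomain, rose by 0.94 (SE 0.24) in LSK and by 0.89 (SE 0.24) in GMP (adjusted p = 0.0474 and 0.0244). The LSK call of Macroh2a2 ended with centred arrays and without 7 of the 12 arrays in turn, and the GMP call without GMP KO replicate 3 or GMP WT replicate 1 or 3. The GMP count of variants that fell was 3 without any one GMP WT array, and the LSK count was 1 without GMP WT replicate 2, LSK KO replicate 2 or 3 or replicate 1 or 2 of LSK WT. Macroh2a1 fell by 0.54 in GMP. H2az2 read 8.67, 9.57 and 9.94 in GMP KO, against 10.30, 10.21 and 10.15 in GMP WT. It fell by 0.83 (SE 0.22, adjusted p = 0.0233). The lowest value by a wide margin was that of GMP KO replicate 1, the array with the lowest correlation with its group. The value of H2az2 without that array is not given here.

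Cell cycle lists were set beside the histones. Of 54 S phase and DNA replication genes, 44 fell in GMP and 0 rose (median -0.58), and 2 fell in LSK (median -0.09). Of 62 genes of G2 and mitosis, 61 fell in GMP (median -1.04) and 3 in LSK (median -0.24). Over all genes, 10.3% fell in GMP and 1.96% in LSK. The S phase genes Gins1 (-0.93), Gins3 (-1.22), Lig1 (-0.79) and Ccna2 (-1.0) fell in GMP, as did the mitotic genes Knstrn (-1.27), Kif22 (-1.01), Bub1b (-1.06) and Top2a (-1.16). In LSK, E2f2 (-0.62) and Rfc3 (-0.44) of the first list and Prc1 (-0.77), Fbxo5 (-0.45) and Ckap2 (-0.57) of the second fell. The effects differed between the cell types for 17 of the S phase and 28 of the G2 and mitosis genes by the interaction test, where 7.98% of all genes did. The LSK count of G2 and mitosis was 0 without LSK KO replicate 2 or 3 or replicate 1 or 2 of LSK WT, 6 without GMP KO replicate 1, and 5 without GMP KO replicate 2 or 3. The LSK count of S phase genes that fell was 1 without each of those 4 LSK arrays, and 3 rose without GMP KO replicate 1.

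**Figure D4:**
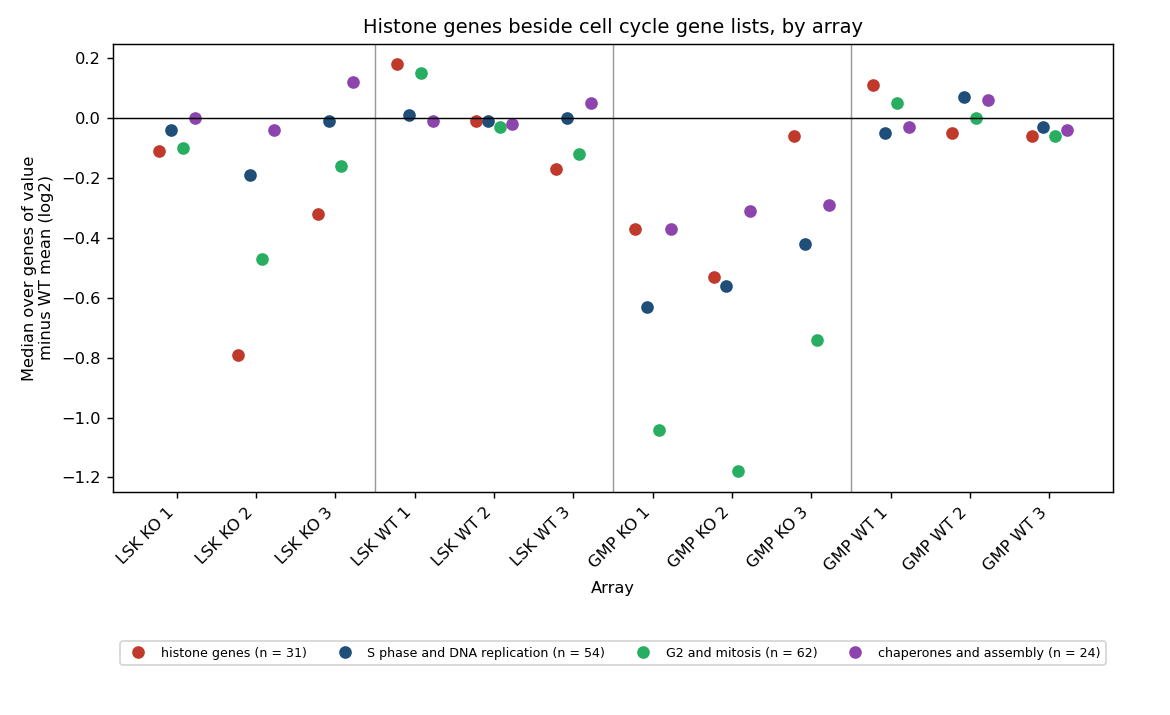
Median over the genes of each list of the RMA value minus the WT mean of the cell type (log2, y axis), by array (x axis), for the histone genes, S phase, G2 and mitosis, and chaperones. In GMP KO the S phase median lies at -0.63, -0.56 and -0.42 and that of the histone genes at -0.37, -0.53 and -0.06. In LSK KO replicate 2 the histone genes lie at -0.79 and S phase at -0.19.

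By array, the median of S phase genes relative to WT was -0.04, -0.19 and -0.01 in LSK KO and -0.63, -0.56 and -0.42 in GMP KO. That of G2 and mitosis was -0.10, -0.47 and -0.16 in LSK KO and -1.04, -1.18 and -0.74 in GMP KO. LSK KO replicate 2 was the lowest LSK KO array for the histones and both lists, and GMP KO replicate 3 was the least shifted GMP KO array for all 3. The mean of 27 macrophage markers was 6.77, 7.59 and 6.97 in LSK KO, against 6.10, 6.10 and 5.92 in LSK WT, and 8.0, 8.17 and 8.40 in GMP KO, against 6.28, 6.23 and 6.20 in GMP WT. Of these markers 10 rose in LSK and 17 in GMP, and 0 fell. For this and the marker counts that follow, the shares over all genes were 2.49% higher and 1.96% lower in LSK. In GMP they were 5.78% higher and 10.3% lower. In LSK KO the array with the highest macrophage markers had the lowest histone values. In GMP KO the order of the arrays depended on the summary, since replicate 3 was highest by the mean of the markers and replicate 1 by the median marker relative to WT (1.62, 1.32 and 1.55 in replicates 1, 2 and 3). Of 11 mast cell, basophil and eosinophil markers, 4 rose and 0 fell in LSK (median 1.07), and 3 rose and 1 fell in GMP (median 0.95). Of 9 megakaryocyte and platelet markers, 1 rose and 4 fell in LSK (median -0.46), and 1 rose and 1 fell in GMP (median -0.10). Of 13 erythroid markers, 1 rose and 2 fell in LSK (median -0.12), and 0 rose and 3 fell in GMP (median -0.22). Of 11 genes marking the GMP gate, 5 rose and 0 fell in LSK KO (median 1.02), among them the Fcγ receptor gene Fcgr3 (8.27 in LSK KO, 5.91 in LSK WT), and in GMP KO 2 rose and 2 fell. Of 9 genes marking the LSK gate, 0 rose and 1 fell in LSK KO (median -0.33). In GMP KO 2 of these rose and 0 fell (median 0.14). They were Flt3 (8.84 in GMP KO, 7.58 in GMP WT) and Kit (adjusted p = 5.13e-05 and 0.0485). The part of these markers in the histone values was not tested. In these sorted bulk samples, fewer cycling cells and less histone RNA per cell cannot be told apart.

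Between the cell types, WT LSK had more signal than WT GMP for 3 members and less for 0, that is 9.68% of the members, where 19.6% of all genes were called (10.3% higher and 9.32% lower). The LSK WT arrays lay wholly above the GMP WT arrays for 10 members, where this held for 19.1% of all genes. The median was 0.25, compared with -0.03 over all genes, and 0.14 without LSK WT replicate 1. H3c4 read 7.38, 6.99 and 7.14 in LSK WT, against 5.89, 5.96 and 6.33 in GMP WT, a difference of 1.11 (adjusted p = 0.00559). Its GMP WT mean of 6.06 lay within the range of the array medians (5.96 to 6.18). The 9 shared H3 probe sets differed less in this comparison, with a median of 0.21 and a range from -0.03 to 0.40. Over all 23 shared histone probe sets the median was 0.10. H2bc21 was higher in LSK WT by 1.10 (adjusted p = 5.51e-04) and H2bu2 by 0.50 (adjusted p = 0.0015), and the arrays of neither overlapped. The count was 6 without GMP KO replicate 1 and 5 without GMP KO replicate 3 or LSK KO replicate 2. S phase genes ran the other way in this comparison, with 15 of 54 lower in LSK WT and 0 higher (median -0.23). Between KO LSK and KO GMP, 0 of 31 members passed by limma, 3 had an unadjusted p under 0.05, as 31.9% of all genes did, and 15.8% of all genes were called (10.1% higher and 5.79% lower). Without GMP KO replicate 3, and without LSK KO replicate 2, 3 members passed, and without LSK KO replicate 3, 1 did. The comparisons share arrays with those of KO against WT, so their values are not independent.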

How the data were processed

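Per the labels, total RNA from 12 sorted samples was purified (Qiagen RNeasy Micro), amplified with NuGEN's WT-Ovation Pico chemistry, biotin-labelled and read on Affymetrix arrays. The deposited values are log2 intensities after RMA (background correction, quantile normalisation, summary per probe set), per the submitters' processing notes. The software behind it is not given in the sources used here. There were 34760 probe sets in the table. The 21640 with a single symbol were named through a GRCm38.p6 gene table and reduced to 19937 genes by the probe set with the highest mean over 12 arrays. The files name no build, so positions are printed only with RefSeq sequences. Array medians lay between 5.96 and 6.18, and the number of arrays limits the precision.

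The 4 groups were fitted with limma 3.58.1 in R 4.3.3 (degrees of freedom: 8 residual, 5.16 prior; two-sided tests, Benjamini-Hochberg over all genes, threshold 0.05), after a check on simulated data. All adjusted p-values come from these limma fits. Members and lists were chosen with earlier results of these data known. Members named were up to 12 past the threshold per contrast, the 3 with the highest signal and the 4 largest KO effects of each class, and the germ line and polyadenylated ones, 26 in all. From each other list the 4 smallest p past the threshold were named. Npat, Kit, Fcgr3 and Flt3 were named after their values were seen. Alternatives were other scalings, filters, variance models, weights, blocks and each array left out.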

Additional observations from a re-analysis of the deposited data

Results flagged for a closer look

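Of the histone genes named, H2bc21 and H2bu2 had KO effects that differed between LSK and GMP by the interaction test of limma, by -1.23 (adjusted p = 0.011) and -0.50 (adjusted p = 0.0351) in log2, LSK minus GMP. The H2bu2 call ended without 9 of the 12 arrays in turn and under both rescalings (adjusted p = 0.184 after repeated quantile normalisation and 0.0975 with centred arrays). The signal of H2bu2 was also low, with a mean of 5.53 in LSK KO and in GMP KO. For H2bc21 all 3 KO arrays lay below WT in LSK and above WT in GMP. Among genes of the lists set beside them, the KO effect was more negative in GMP for the S phase genes Lig1 (0.55), Gins1 (0.80), Gins3 (0.92) and Ccna2 (0.75). The same held for Knstrn (1.23), Kif22 (0.76), Bub1b (0.85) and Top2a (0.87) of G2 and mitosis. It also held for Cpsf2 (0.79) and Casp8ap2 (0.70) of histone mRNA processing, and for the chaperones Anp32e (0.93), Dnajc9 (0.54), Nasp (1.06) and Asf1a (0.50). These values are LSK minus GMP, and their adjusted p lay between 0.00101 and 0.0288. Each of these list genes had been named for a small p in GMP, a choice that favours a more negative effect there. The S phase and mitosis genes named through LSK did not pass the interaction test of limma. They were E2f2 (-0.24), Rfc3 (0.02), Prc1 (0.36), Fbxo5 (0.27) and Ckap2 (0.47), with adjusted p between 0.152 and 0.947.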

How the results depend on the processing

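No direction of a named histone gene that passed the threshold turned under the alternatives run. Members lower in LSK KO, 1 in the main setting, were 2 with array weights, 2 in a fit of the LSK arrays alone, 0 with a fold of at least 1 (log2) as well, and 1 to 2 with an array left out. Members higher in GMP KO were 0 with that fold and 1 to 4 with an array left out. Members lower in GMP KO, 3 in the main setting, were 1 after repeated quantile normalisation, 6 with centred arrays, 1 with array weights, 1 with the fold and 0 to 13 with an array left out. The interaction had 2 members below 0, and 1 after either rescaling, 1 with the fold and 1 to 4 with an array left out. Members higher in WT LSK than in WT GMP, 3 in the main setting, were 7 with array weights, 10 in a fit of those groups alone and 3 to 6 with an array left out. For KO LSK against KO GMP, leaving out an array gave 0 to 3 members higher and 0 to 1 lower. With the replicate block, a paired fit on the replicate number, 6 members fell in GMP KO, 7 were higher in WT LSK and 1 was higher in KO LSK than in KO GMP. The labels do not tie the numbers to mice, and over all genes the deviations of same-numbered arrays correlated from -0.179 to 0.285, not above 0.1 in every pair, so the numbers were not used as pairs. A random block within genotype had a consensus correlation near 0 (-9.16e-05) and gave the main counts. The cause of these shifts was not tested. Lamtor2 fell under every array left out, from -5.14 to -4.81 in LSK and from -5.71 to -5.42 in GMP. Leaving out the germ line members and the pseudogene, an alternative chosen after the data were seen, as was the fit over probe sets, changed no count in KO against WT. H1f6 and H3c7 were among the dimmest 30% of genes. With 3 arrays a group and SDs of histone genes above those of most genes, small differences could not be told from array spread.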
